A study of Mus musculus with 22 samples.

Results

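Eicosanoids are signalling lipids made from arachidonic acid, and 8 genes that make them are described here across 6 cell types sorted from mouse colon crypts. The genes are Alox5, Alox5ap, Ltc4s, Ptgs1, Ptgs2, Hpgds, Pla2g4a and Ptges. They were chosen by name out of 24421 genes with counts, not by a value measured here, and all 8 passed the filter on low counts. The study shows tuft cell expression of enzymes of this pathway on these same samples, so that their direction in tuft cells is not independent evidence.

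RNA was sequenced in 22 libraries from colons of wild-type male C57BL/6N mice aged 5 to 7 weeks, with at least 2500 sorted cells per library. No library had a treatment or an altered allele. Every population was sorted as live, Epcam+, Cd45- and Cd31-, so that epithelium was kept and leukocytes and endothelium were gated out. Stem cells (Stem, n = 3) had the highest Cd44 with low Cd24 and no cKit, and absorptive progenitors (AbsPro, n = 3) had medium to high Cd44 with low Cd24 and no cKit. The mixed gate of secretory progenitors, deep crypt secretory cells and goblet cells (SecPDG, n = 4) had high Cd44, medium Cd24 and medium cKit by the labels, while the study's text gives medium Cd44. Tuft cells (n = 5) were cKit+ with high Cd24, enterocytes (Ent, n = 5) had low or no Cd44 and no Cd24, and enteroendocrine cells (EEC, n = 2) had low or no Cd44 and were Cd24+. By the study's methods a library of stem cells or AbsPro came from 1 mouse, and the other libraries pooled several mice. Replicates were sorted separately from different mice or sets of mice.

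Counts on genes ran from 4122122 to 22462518 per library, with the lowest total in EEC 1. Reads outside annotated genes made up 45.2 to 48.5% of a library in Stem, 43.4 to 68.0% in tuft cells and 66.8 to 83.1% in Ent, and the 2 EEC libraries had 89.7 and 64.5%. A background level was estimated from 1441 olfactory and vomeronasal receptor genes (Olfr, Vmn1r and Vmn2r), assumed to be mostly unused in colon epithelium. None was left out for its level, and any that a cell type does use would raise its estimate. These held 51.2 to 85.2 CPM (gene counts scaled to the library's total) in Stem, 173 to 1427 in tuft cells, 747 to 3766 in Ent and 6779 and 594 in EEC 1 and EEC 2. Spearman's rho between libraries of a cell type, across genes, was at least 0.866 except in EEC, where it was 0.573. File names take one form in SecPDG and tuft cells and a second form in Stem, AbsPro, Ent and EEC, and whatever the form stands for cannot be told apart from the cell type. The comparison of tuft cells with SecPDG lies within the first form, and those of AbsPro, Ent and EEC with Stem lie within the second.

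In this pathway, phospholipase A2 frees arachidonic acid from membranes. One arm then leads through 5-lipoxygenase to leukotrienes, and another leads through the cyclooxygenases to prostaglandin H2, from which terminal synthases make prostaglandins D2 and E2. Tuft cells are rare chemosensory cells of the epithelium that are known for releasing both kinds of lipid. Of the members, Pla2g4a encodes cytosolic phospholipase A2, Alox5 encodes 5-lipoxygenase, Alox5ap its activating protein FLAP, and Ltc4s leukotriene C4 synthase. Ptgs1 and Ptgs2 encode the cyclooxygenases Cox-1 and Cox-2, Hpgds a prostaglandin D2 synthase and Ptges a prostaglandin E2 synthase.

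On mm10, Pla2g4a (chr1:149829618-149961290, minus strand) and Ptgs2 (chr1:150100031-150108227, plus strand) are neighbours separated by 138740 bases that hold 3 other annotated genes, Gm19136, Gm44329 and Ptgs2os. Ptgs1 (chr2:36230426-36252272, plus) and Ptges (chr2:30889471-30929863, minus) lie on chromosome 2. Alox5 (chr6:116410077-116461178, minus) and Hpgds (chr6:65117293-65144908, minus) lie on chromosome 6. Alox5ap is at chr5:149264767-149288153 (plus) and Ltc4s at chr11:50236461-50238616 (minus). Gm26542 overlaps Ltc4s, Gm43621 overlaps Ptgs1, Gm17147 overlaps Hpgds and Gm19719 overlaps Alox5ap, each on the opposite strand, and Gm13400 overlaps Ptges on the same strand. Since reads were counted without strand, reads of such pairs cannot be told apart.

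RefSeq (GRCm38.p6) gave a promoter for 7 of the 8 members, and Alox5ap had none in the table. The 250 bases before each start were searched on both strands for the octamer ATGCAAAT, the GC box GGGCGG and the TATA motif TATAAA, and no match overlapped another; the motifs were chosen after the sequences had been seen. A GC box was found in Alox5, Ptgs2 and Ptges, the octamer in Hpgds and the TATA motif in 1 promoter of Pla2g4a, and the windows of Ltc4s and Ptgs1 held none of the 3. A pair of matches is shown, those in members called higher in tuft cells, with the motif in capitals, on the minus strand that both genes lie on:
Alox5 (chr6:116461196-116461225): ggccagagacagGGGCGGagccagcgcctg
Hpgds (chr6:65144886-65144915): ctttactctttATGCAAATacgttggacta
The GC box of Alox5 begins 35 bases before the start, and 32.7% of 32851 promoters hold a GC box in the same window. The octamer of Hpgds begins 174 bases before the RefSeq start and is held by 1.6% of promoters. In the GENCODE annotation the gene starts further upstream, and the first base of the octamer lies 4 bases inside its boundary. The octamer is the sequence that gave its name to the octamer-binding POU factors, the family of the tuft cell factor Pou2f3. These matches describe letters only.

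Levels are given as normalized counts, in which each library was scaled by its gene total and edgeR's TMM factor to the mean library. A gene was called between 2 cell types when the Benjamini-Hochberg adjusted p of edgeR's quasi-likelihood F test, over 22781 genes, was under 0.01 and the gene averaged at least 50 normalized counts across the 22 libraries. Ptges and Ptgs2 have means under 50 and could not be called at any fold. In bulk RNA, fewer cells that use a gene and less RNA per cell cannot be told apart. Genes with a mean of at least 50 had a median log2 fold change of -0.30 both in Ent and in EEC against Stem, a shift that moved to 0.35 and 0.48 under the size factors of DESeq2. Fold changes in Ent and EEC are relative to it.

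**Figure D1:**
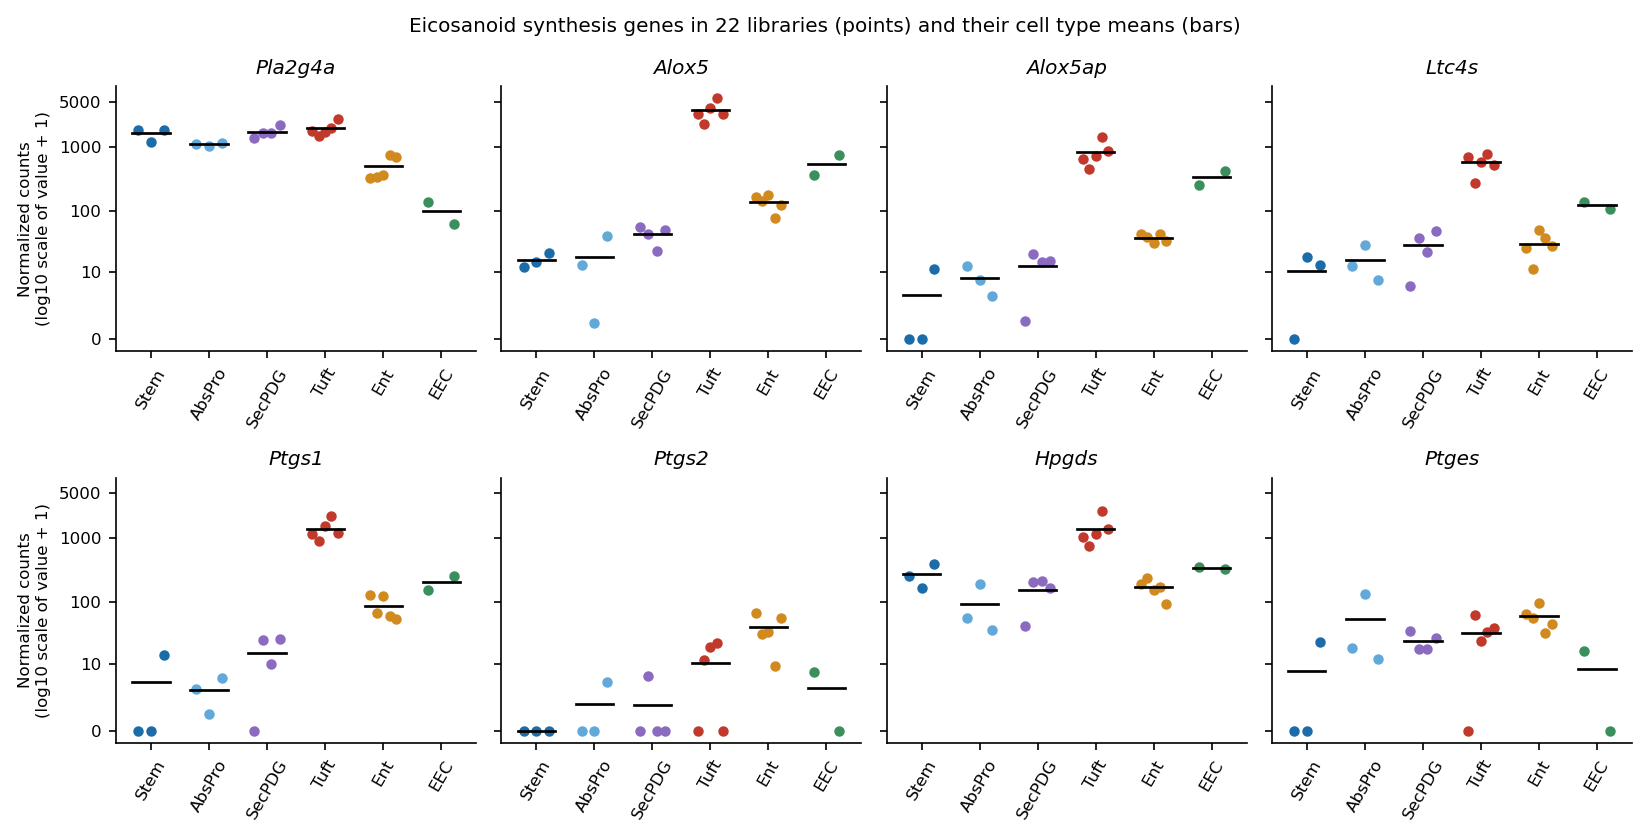
Normalized counts (log10 scale of the value plus 1) of the 8 members in 22 libraries, with a point per library and a bar at the mean of each cell type. In Alox5, Alox5ap, Ltc4s, Ptgs1 and Hpgds all 5 tuft libraries lie above every other library, while Pla2g4a is high from Stem to tuft cells and low in Ent and EEC.

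Tuft cells had high counts of the genes of both arms. Alox5, Alox5ap and Ltc4s of the leukotriene arm and Ptgs1 and Hpgds of the prostaglandin arm were called higher in tuft cells than in Stem, AbsPro, SecPDG and Ent. Per kilobase, the phospholipase gene Pla2g4a lay within the range of these 5 genes in tuft cells, but its level in Stem and SecPDG was near that in tuft cells. The second cyclooxygenase gene Ptgs2 and the prostaglandin E2 synthase gene Ptges had few counts in tuft cells. Against Stem, 5 of 8 members were called higher and none lower, where 12.1% of all genes tested were called and 7.84% were called higher. The median log2 fold change of the members was 5.98, to which Ptgs2 contributes a fitted value against a group at 0, and that of all genes tested was 0.83.

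Alox5, which starts the leukotriene arm, had 3254, 2232, 4019, 5699 and 3243 normalized counts in the 5 tuft libraries. It had 12.2, 14.7 and 20.9 in the 3 stem libraries. The groups were far apart, and the log2 fold change was 7.83 (SE 0.51, edgeR adjusted p = 1.3e-18), with 5 of 5 tuft libraries above the stem mean. Alox5ap, which presents arachidonic acid to 5-lipoxygenase, had 648, 448, 700, 1433 and 864 in tuft cells and 0, 0 and 11.5 in Stem. Its log2 fold change was 7.67 (SE 0.63, edgeR adjusted p = 9.65e-16), and all of its 17 stem counts came from Stem 3. Without Stem 3 the stem libraries were at 0, and the fitted value rose to 12.64, which is then no bound. Ltc4s, which joins glutathione to leukotriene A4, had 680, 274, 583, 775 and 521 in tuft cells and 0, 17.9 and 13.5 in Stem. Its log2 fold change was 5.67 (SE 0.56, edgeR adjusted p = 2.68e-12).

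Ptgs1, the cyclooxygenase gene most cells use at rest, had 1152, 902, 1527, 2173 and 1190 normalized counts in tuft cells and 0, 0 and 14.1 in Stem. The log2 fold change was 8.13 (SE 0.61, edgeR adjusted p = 2.76e-17), and here too the 21 stem counts were all in Stem 3, without which the fitted value was 13.41, again no bound. Hpgds had 1045, 750, 1140, 2604 and 1399 in tuft cells and, unlike the other 4 genes, a clear level in Stem of 252, 168 and 391. Its log2 fold change was smaller, 2.36 (SE 0.38, edgeR adjusted p = 2.95e-06), with no overlap of the groups. Tuft 4 was the highest of the tuft libraries for Alox5, Alox5ap, Ltc4s, Ptgs1 and Hpgds, and it also had the highest sum of tuft markers. Tuft 2 was the lowest for all 5 genes and had the lowest sum of these markers.

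The same 5 genes were called higher in tuft cells than in AbsPro, where 8.13% of all genes were called (5.23% higher), and than in SecPDG, where 3.37% were (3.02% higher). Against SecPDG, whose file names have the same form, log2 fold changes were 6.45 (SE 0.41) for Alox5, 6.59 (SE 0.49) for Ptgs1 and 6.02 (SE 0.50) for Alox5ap. They were 4.38 (SE 0.46) for Ltc4s and 3.15 (SE 0.38) for Hpgds, and the largest edgeR adjusted p of the 5 was 6.37e-09. Against Ent, where 8.43% of all genes were called and 5.78% called higher, Pla2g4a joined the 5 genes, with a log2 fold change of 1.97 (SE 0.28, edgeR adjusted p = 1.97e-07). The comparisons of tuft cells share the tuft libraries and are not independent of each other.

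**Figure D2:**
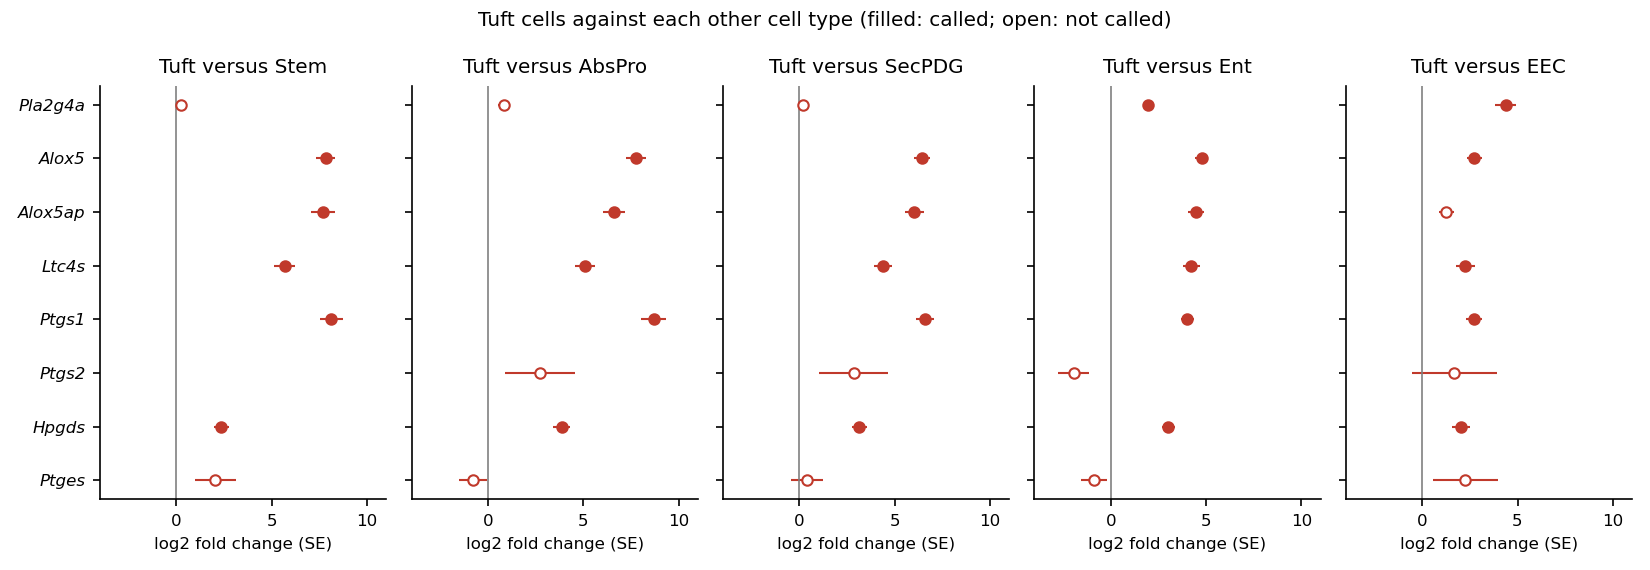
Log2 fold change with its standard error of each member in tuft cells against Stem, AbsPro, SecPDG, Ent and EEC, from edgeR. Filled points were called and open points were not; Ptgs2 against Stem is left out since Stem had no count. Alox5 and Ptgs1 lie between 6.45 and 8.69 against Stem, AbsPro and SecPDG, and Pla2g4a lies near 0 against Stem and SecPDG.

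Levels of different genes were compared per kilobase of the longest annotated transcript. In tuft cells Alox5 had 1308 ± 457 (SD, n = 5) normalized counts per kilobase, Ltc4s 873 ± 293, Pla2g4a 670 ± 164 and Alox5ap 654 ± 299. Ptgs1 had 484 ± 171 and Hpgds 399 ± 207 on the same scale, while Ptges had 8.72 ± 6.28 and Ptgs2 2.34 ± 2.31. Of the counts per kilobase of both cyclooxygenase genes, Ptgs1 held 99.2 to 100% in the tuft libraries and 59.6 to 91.1% in the Ent libraries. Hpgds held 92.6 to 100% of the sum of Hpgds and Ptges in tuft cells and 62.3 to 84.8% in Ent. High shares were not particular to tuft cells. Hpgds held 94.7 to 100% in Stem and 95.7 to 100% in EEC, but at most 76.3% in AbsPro and 56.1 to 92.6% in SecPDG. Ptgs1 held 97.1 to 100% in EEC, 86.1 to 100% in SecPDG and 65.1 to 100% in AbsPro. In Stem only Stem 3 had counts of a cyclooxygenase gene, all of Ptgs1. These shares include background reads, estimated at 53.4% of the Ptgs2 mean and 29.2% of the Ptges mean in Ent.

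The labelled cell types were checked against their markers. The 9 tuft markers with counts (Dclk1, Trpm5 and Pou2f3 among them) summed to 25092 to 68311 normalized counts in the tuft libraries and to 64.7 to 80.9 in Stem, and 7 of 9 were called higher. Mast cells also express these synthesis genes and cKit, which was part of the tuft gate. The 10 mast cell markers summed to 65.9 to 420 in the tuft libraries, 3.2 to 53.5 in Stem, 238 to 552 in Ent and 911 and 559 in EEC 1 and EEC 2. None of the 10 was at 0 in all tuft libraries, and the mean sum was 228 in tuft cells and 409 in Ent. The 4 eosinophil markers summed to 1113 to 2459 in tuft cells and 27.5 to 43.5 in Stem. Siglecf made up most of this sum, with a mean of 1580 in tuft cells and 39.3 in Ent. Epx, Prg2 and Ccr3 had means of 97.7, 42.4 and 22.4 in tuft cells and 107, 72.9 and 49.3 in Ent. The 10 myeloid markers summed to 654 to 2025 in tuft cells and 664 to 993 in Stem, and C1qa led them with 765. The 5 endothelial markers summed to 236 to 679 in tuft cells and 9.6 to 30.3 in Stem, and 4 of 5 were called higher. The part of these other markers in the members' levels was not tested. Goblet markers were high in the tuft gate too, and their sum was 783602 to 1181319 there and 21439 to 35063 in Stem.

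Pla2g4a had the highest level of the members in Stem, at 560 normalized counts per kilobase beside 77.8 for Hpgds, the next. It had 1814, 1175 and 1813 normalized counts in Stem, 1103, 1008 and 1127 in AbsPro, and 1379, 1605, 1612 and 2201 in SecPDG. Tuft cells had 1741, 1474, 1691, 1975 and 2686, within reach of SecPDG and Stem. The log2 fold change of tuft cells was 0.26 (SE 0.29, edgeR adjusted p = 0.476) against Stem and 0.18 (SE 0.27, edgeR adjusted p = 0.641) against SecPDG. Against AbsPro it was 0.83 (SE 0.30, edgeR adjusted p = 0.0409) and was not called, although the groups did not overlap; it was called with DESeq2's Wald test, with its size factors and with library totals.

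Pla2g4a fell in both Ent and EEC. The Ent libraries had 322, 338, 365, 750 and 676, all below the stem libraries, with a log2 fold change of -1.70 (SE 0.31, edgeR adjusted p = 1.34e-05). The 2 EEC libraries had 136 and 60.7, with a log2 fold change of -4.11 (SE 0.55, edgeR adjusted p = 3.31e-08). Ent also lay below AbsPro, with a log2 fold change of -1.14 (SE 0.31, edgeR adjusted p = 0.00332), where 16.2% of all genes were called. This call was lost with DESeq2's Wald test, its size factors, library totals, a fit of the 2 cell types alone, and without AbsPro 2, Ent 2 or Ent 3 (edgeR adjusted p = 0.0112 to 0.0137). EEC lay below Ent, with a log2 fold change of -2.41 (SE 0.57, edgeR adjusted p = 0.00235). This call was lost without EEC 2 (-1.86, edgeR adjusted p = 0.0458), in a fit of the 2 cell types alone (edgeR adjusted p = 0.0247) and with the replicate number as a block (-2.01, edgeR adjusted p = 0.011).

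In the progenitor gates the other members were low. No member was called in AbsPro or in SecPDG against Stem by edgeR or by DESeq2, where 0.588% and 4.97% of all genes were called, and at an unadjusted p under 0.05 there were 2 members in AbsPro and 0 in SecPDG. Those 2 were Hpgds, with a log2 fold change of -1.51 (SE 0.50, edgeR adjusted p = 0.153), and Ptges, with 2.79 (SE 1.00, edgeR adjusted p = 0.209). Hpgds had 56.5, 190 and 35.6 normalized counts in AbsPro and 42.5, 208, 211 and 168 in SecPDG, and overlapped Stem in both. AbsPro 2 stood apart in 3 members, with 133 for Ptges against 18.4 and 12.2 in the other 2 libraries, 190 for Hpgds and 0.813 for Alox5. Alox5 in SecPDG, at 55.8, 42.3, 22.7 and 49.9, lay above all 3 stem libraries, but with a log2 fold change of 1.38 its difference was not called (SE 0.83, edgeR adjusted p = 0.43).

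Enterocytes had a low level of Alox5 and Ptgs1 that was above Stem. Against Stem, 2 of 8 members were called higher (Alox5 and Ptgs1) and 1 lower (Pla2g4a), where 22.2% of all genes were called, 10.7% higher and 11.5% lower, so that the share of members called was near the background. Alox5 had 164, 140, 176, 77.6 and 122 normalized counts, which is 3.68% of the tuft mean, and a log2 fold change of 3.06 (SE 0.66, edgeR adjusted p = 0.000171). Ptgs1 had 130, 66.5, 126, 60.4 and 54, or 6.30% of the tuft mean, and a log2 fold change of 4.13 (SE 0.89, edgeR adjusted p = 0.000163). Both sets lay above every stem library. The background estimate came to 9.86% of the Alox5 mean and 15.6% of the Ptgs1 mean in Ent. With the estimate subtracted, the means were 122 against 15.4 in Stem for Alox5 and 73.8 against 4.14 for Ptgs1. In Ent the estimate was also only 9.5 to 18.4% of the marker sums of mast cells, eosinophils, myeloid cells, lymphocytes and endothelium. The gates were set to leave these cells out. Whether the estimate covers all background reads was not tested, so a level above background in Ent is not shown by the subtraction. Alox5ap had 42.4, 37.9, 30, 42.2 and 33.2, above Stem in all libraries, with a log2 fold change of 3.21 that narrowly missed the threshold (SE 1.10, edgeR adjusted p = 0.0106) and was called without Stem 3 (edgeR adjusted p = 0.00552) and by DESeq2.

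Ptgs2, the inducible cyclooxygenase gene, had its highest mean in Ent. It had 67.3, 31, 33.5, 9.12 and 56.8 normalized counts there, and it was at 0 in all 3 stem libraries, in 2 of 3 in AbsPro, in 3 of 4 in SecPDG and in 2 of 5 in tuft cells. A floor of 3 counts over the stem group was used, which covers counting error only since reads carried no molecular identifiers. Against this floor the Ent mean of 39.5 was at least 57.4-fold higher with background reads included. The Ent mean of 18.4 after subtraction of the background estimate was 26.7-fold above the floor. That second value is no bound, since whether the estimate covers all background reads was not tested. The edgeR adjusted p was 0.00068, but the mean over all libraries was too low for a call. The background estimate was 21.1 in Ent, or 53.4% of the mean, and 4 of 5 Ent libraries lay above their own estimate. In tuft cells (mean 10.4) and EEC (7.23 and 0) the estimate was above the mean, at 103% and 729% of it, and 2 of 5 tuft libraries and 0 of 2 EEC libraries lay above their own, so that no mean above background was detectable there. The difference of tuft cells and Ent, with overlapping libraries, did not pass the test (log2 fold change -1.95, SE 0.82, edgeR adjusted p = 0.0991), and neither did that of EEC and Ent (edgeR adjusted p = 0.178).

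Ptges was spread over Ent, with 65.9, 56.2, 98.2, 31.9 and 44.3 normalized counts, and AbsPro, with a mean of 54.6 ± 68.3 (SD, n = 3) that rested on AbsPro 2. Its log2 fold change in Ent against Stem was 2.91 (SE 0.96, edgeR adjusted p = 0.00838), again with too low a mean for a call. All 34 stem counts came from Stem 3, and leaving out single libraries gave 2.15 to 8.74, the latter without Stem 3 and no bound. Without Stem 2 the edgeR adjusted p was 0.0754, and with edgeR's older quasi-likelihood method it was 0.126. Tuft cells had 0, 63.1, 24, 33.4 and 38.5, and overlapped every other cell type. The background estimate was 29.2% of the Ent mean and 27.6% of the tuft mean, and in EEC it was 265% of the mean. Among neighbours in the order of its levels, no step between Ent, AbsPro, tuft cells and SecPDG passed the test (smallest edgeR adjusted p = 0.422).

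**Figure D3:**
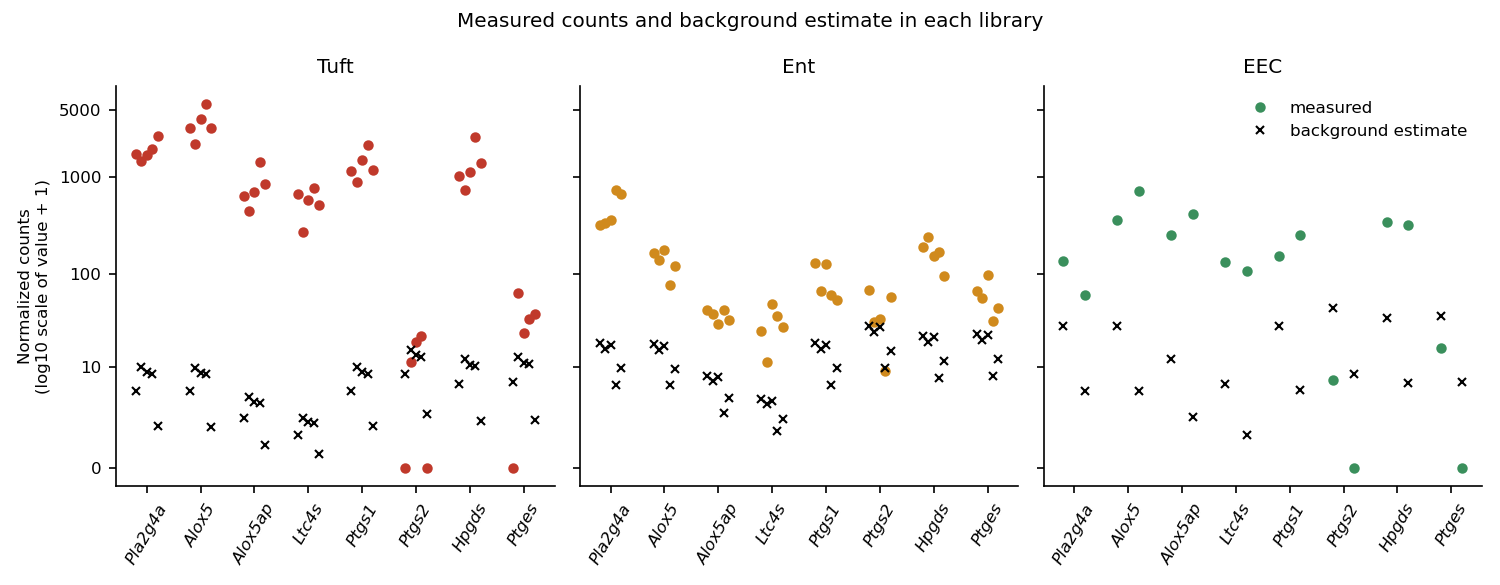
Normalized counts (log10 scale of the value plus 1) of the members in each tuft, Ent and EEC library, with the background estimate for the same gene and library as a cross. The estimate for Ptgs2 and Ptges reaches the measured values in part of the libraries (103% of the Ptgs2 mean in tuft cells), and it is 0.184% of the Alox5 mean in tuft cells.

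EEC had the second highest levels of Alox5, Alox5ap, Ltc4s, Ptgs1 and Hpgds. Against Stem, 4 members were called higher and 1 lower, where 19.9% of all genes were called, 10.8% higher and 9.13% lower. Alox5 had 362 and 726 normalized counts, Alox5ap 253 and 417, Ltc4s 134 and 107 and Ptgs1 155 and 255, each pair above all stem libraries. Log2 fold changes were 5.11 (SE 0.62) for Alox5, 6.41 (SE 0.81) for Alox5ap, 3.41 (SE 0.87) for Ltc4s and 5.42 (SE 0.89) for Ptgs1, with edgeR adjusted p values of at most 0.00106. The background estimate was 2.21 to 8.27% of these 4 means. The call of Ltc4s was lost without EEC 1 (log2 fold change 3.1) and in a fit of the 2 cell types alone (edgeR adjusted p = 0.0385). It was also lost in counts thinned to the smallest library. Hpgds, at 349 and 325, overlapped Stem, with a log2 fold change of 0.31 (SE 0.52, edgeR adjusted p = 0.645).

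These EEC levels came with tuft markers. The tuft markers summed to 4371 in EEC 1 and 8214 in EEC 2, against 64.7 to 80.9 in Stem, and their mean sum was 13.9% of that in tuft cells. Dclk1 was at 13.1% of its tuft mean, Trpm5 at 14.6%, Rgs13 at 13.6%, Pou2f3 at 17.7% and Chat at 61.6%, while Gng13 was at 0 in both libraries. Among the members, Alox5 was at 14.7%, Ptgs1 at 14.8%, Ltc4s at 21.2%, Hpgds at 24.3% and Alox5ap at 40.9% of the tuft mean, and Pla2g4a at 5.13%. The part of tuft cells in the EEC levels was not tested. Enteroendocrine markers such as Chga summed to 596870 and 1714000 in the same libraries. Markers of other cell types were present as well. The 6 enterocyte markers summed to 21676 in EEC 1 and 133223 in EEC 2, with a mean of 77449 beside 58141 in Ent, and 4 of 6 were called higher than in Stem. The 5 endothelial markers summed to 1515 and 864, and 4 of 5 were called higher. Their part in the EEC levels was not tested.

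**Figure D4:**
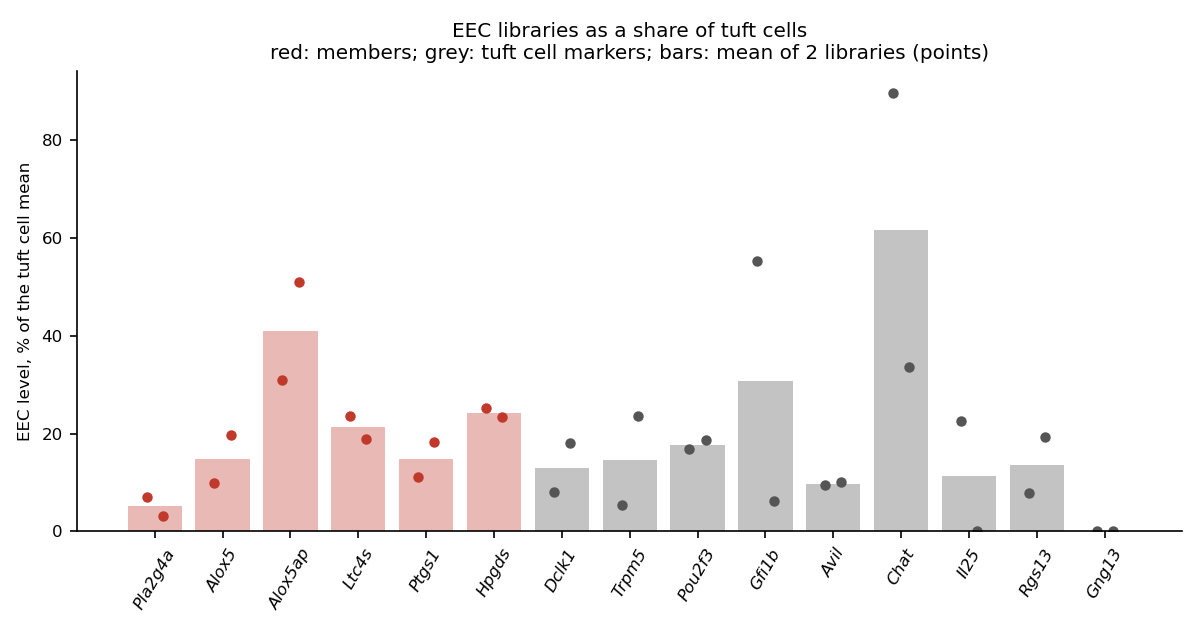
Level in EEC as a percentage of the tuft cell mean, for 6 members (red) and 9 tuft cell markers (grey); bars are means of 2 libraries and points are the libraries. Alox5 (14.7%) and Ptgs1 (14.8%) lie beside Dclk1 (13.1%) and Trpm5 (14.6%), and Alox5ap (40.9%) lies higher.

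Tuft cells remained above EEC for 5 of 8 members by edgeR (Alox5, Ltc4s, Ptgs1, Hpgds and Pla2g4a), where 9.30% of all genes were called and 4.56% called higher. Only 2 were called with DESeq2's Wald test, and 3 in a fit of these 2 cell types alone. The log2 fold change was 2.73 (SE 0.40, edgeR adjusted p = 5.8e-07) for Alox5 and 4.38 (SE 0.54, edgeR adjusted p = 5.65e-09) for Pla2g4a. Alox5ap differed least of the leukotriene genes, by 1.26 (SE 0.40, edgeR adjusted p = 0.0163). By the same test, EEC lay above Ent for Alox5, by 2.04 (SE 0.44, edgeR adjusted p = 0.000642), and for Alox5ap, by 3.21 (SE 0.54, edgeR adjusted p = 8.46e-06). The call of Alox5 was lost without EEC 2, where the log2 fold change was 1.42 (edgeR adjusted p = 0.0792), and in a fit of the 2 cell types alone (edgeR adjusted p = 0.0294). For Ltc4s and Ptgs1 the difference of EEC and Ent was not called (edgeR adjusted p = 0.0774 and 0.135), although the libraries did not overlap. Of all genes, 4.69% were called in this comparison, 3.43% higher and 1.26% lower.

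Over the 22 libraries, the pattern of the members was compared with that of 13187 or 13188 genes with a mean of at least 50, by Pearson's r of log2 CPM. The points share cell types and depth, and r is given as a description. Among the 3 genes nearest to Alox5 were Inpp5d (r = 0.966) and the tuft marker Dclk1 (0.961). Ptgs1 (0.966) and Bmx (0.961) were among the 3 nearest to Alox5ap, and Ly6g6f (0.967) and Alox5ap (0.966) among the 3 nearest to Ptgs1. Among the 3 nearest to Ltc4s were Siglecf (0.944) and Pik3cg (0.939), and Hpgds was closest to Krt23 (0.943), Adcy5 (0.890) and Siglecf (0.866).

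Pla2g4a had other neighbours in pattern, Slc12a2 (r = 0.963), Stard3 (0.952) and Lrrk1 (0.945). Slc12a2, a chloride cotransporter gene listed here among the stem markers, had 29741 normalized counts in Stem, 17098 in tuft cells and 702 in EEC. Ptgs2 was closest to Nlrp5 (0.901), 4931408C20Rik (0.891) and Mpp4 (0.889), which had means of 166, 143 and 138 in Ent and at most 4.3 in Stem. Ptges was closest to Ppp3cc (0.805), Lix1 (0.791) and Ctcfl (0.753). Between members, r was 0.861 to 0.966 among Alox5, Alox5ap, Ltc4s and Ptgs1, and it was -0.048 between Alox5 and Pla2g4a.

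The rest of the pathway was followed with a list of 69 further genes, of which 45 had a mean of at least 50. Some of these, among them Plcb3, Lta4h, Ptger4 and Hpgd, were shown by the study on these samples, so that their directions are not independent evidence. In tuft cells against Stem, 12 of the 69 were called higher and 7 lower, where 12.1% of all genes tested were called and 7.84% called higher. Of the 12 and 7 genes, 2 and 5 belong to the 11 genes already shown. The median log2 fold change of the 69 was 1.40 beside 0.83 over all genes tested. In Ent 18 were higher and 6 lower, where 22.2% of all genes were called, and this split was 26 and 2 with DESeq2's size factors and 25 and 5 with library totals. In EEC 11 were higher and 7 lower, where 19.9% of all genes were called, and the split was 23 and 4 with DESeq2's size factors and 19 and 6 with library totals. In SecPDG 6 were higher and 2 lower, where 4.97% of all genes were called, and the split was 6 and 6 with DESeq2's size factors and 6 and 9 with library totals. In AbsPro 4 were higher and 0 lower under all 3 scalings, where 0.588% of all genes were called.

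Among 24 genes for the release of arachidonic acid and related lipids, 8 were called higher and 2 lower in tuft cells. There 12.1% of all genes were called and 7.84% called higher. Plcb2, a phospholipase C of taste signalling, had 8.03 ± 4.79 (SD, n = 3) normalized counts in Stem but 4266 ± 1740 (SD, n = 5) in tuft cells, with a log2 fold change of 9.03 (SE 0.57, edgeR adjusted p = 7.86e-20). The secreted phospholipase genes Pla2g2a and Pla2g2f were higher in both tuft cells and SecPDG, at 178 and 119 for Pla2g2a and at 436 and 471 for Pla2g2f, against 1.12 and 11.0 in Stem. Pla2g4f and Pla2g4e, cytosolic relatives of Pla2g4a, were highest in Ent, at 340 ± 93.8 and 173 ± 96.7 (SD, n = 5), where Pla2g4a was low. The background estimate was 4.34% of the Pla2g4f mean and 12.3% of the Pla2g4e mean there. Plcb3, another phospholipase C gene, was lower in tuft cells, with a log2 fold change of -1.81 (SE 0.37, edgeR adjusted p = 0.000183), and in Ent, with -1.09 (SE 0.36, edgeR adjusted p = 0.00926).

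None of the 8 other prostanoid synthesis genes, of which 4 had a mean of at least 50, was called higher in tuft cells, where 7.84% of all genes were. In tuft cells 2 were called lower, Ptges2 with a log2 fold change of -1.24 (SE 0.31, edgeR adjusted p = 0.00214) and Cbr1 with -1.48 (SE 0.33). Ptges3 was lower in Ent, with a log2 fold change of -1.50 (SE 0.30, edgeR adjusted p = 6.98e-05), and so was Ptges2. Of 13 further leukotriene and lipoxygenase genes, 1 was higher and 1 lower in tuft cells and 5 were higher and 1 lower in Ent. The share of all genes called was 12.1% in tuft cells and 22.2% in Ent. Lta4h, whose enzyme turns leukotriene A4 into leukotriene B4, was lower in tuft cells, with a log2 fold change of -1.05 (SE 0.31, edgeR adjusted p = 0.00836), where Ltc4s, acting on the same substrate, was higher. The lower level of Lta4h was not particular to tuft cells. It was also called lower than in Stem in Ent, with -1.01 (SE 0.31, edgeR adjusted p = 0.00495), and in EEC, with -2.38 (SE 0.45, edgeR adjusted p = 3.01e-05). Dpep1, a dipeptidase of leukotriene D4, had 937 ± 70.3 (SD, n = 3) normalized counts in AbsPro and 1175 ± 249 (SD, n = 5) in Ent against 185 ± 113 (SD, n = 3) in Stem. Both were called higher. Aloxe3 was higher in tuft cells and Ent, at 61.8 and 124 against 3.41 in Stem, with background estimates of 11.7% and 11.6% of the tuft and Ent means. Ggt5 had 101 ± 42.4 (SD, n = 5) in Ent, with a background estimate of 20.7% of it, and 3 counts in all in Stem. Both Aloxe3, at 238 ± 92.9, and Ggt5, at 252 ± 206 (SD, n = 2), were called higher in EEC than in Stem too.

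Of 8 genes of uptake, export and breakdown, 3 were called higher in Ent and 1 in tuft cells, and none lower. The share of all genes called higher was 10.7% in Ent and 7.84% in tuft cells, and 1 of 8 is near the latter. Slco2a1, the prostaglandin transporter gene, had 903 ± 203 (SD, n = 5) normalized counts in Ent, 223 ± 51.8 (SD, n = 5) in tuft cells and, in Stem, 43.3 ± 8.32 (SD, n = 3), and was called higher in both. EEC had 613 ± 322 (SD, n = 2) and was called higher than Stem as well. Hpgd, which inactivates prostaglandins, was higher in Ent, with a log2 fold change of 1.11 (SE 0.32, edgeR adjusted p = 0.00283), and not called in tuft cells, with -0.35 (SE 0.31). Cyp4f14, a hydroxylase of leukotriene B4, was called higher in Ent, AbsPro and EEC than in Stem, and lower in SecPDG. Abcc4, an exporter gene, was not called in either tuft cells or Ent.

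Of 16 receptor genes, 2 were called higher and 2 lower in tuft cells, where 12.1% of all genes were called and 7.84% called higher. Ptger4, a receptor gene of prostaglandin E2, had 305 ± 47.9 (SD, n = 3) normalized counts in Stem, 1084 ± 317 (SD, n = 5) in tuft cells and a highest mean of 2581 ± 235 (SD, n = 4) in SecPDG. It was called higher in both, with log2 fold changes of 3.07 (SE 0.36, edgeR adjusted p = 2.99e-09) in SecPDG and 1.83 (SE 0.35, edgeR adjusted p = 7.1e-05) in tuft cells. The nuclear receptor genes Pparg and Ppara were lower in tuft cells, with log2 fold changes of -1.47 (SE 0.31) and -1.21 (SE 0.30). Ppara was called lower in SecPDG too, with -1.25 (SE 0.32), and Pparg in Ent, with -0.94 (SE 0.31). Pparg in SecPDG, at -1.21 (SE 0.33), was not called. Ptgfr was called higher in tuft cells and Ent, and 28.6% and 43.5% of its means there were background by the estimate. It was also called higher in EEC, at 243 ± 309 (SD, n = 2). Ptger3 was higher in Ent, at 119 ± 28.5 (SD, n = 5) against 20.2 ± 10.4 (SD, n = 3) in Stem, with a background estimate of 12.5% of the Ent mean.

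**Figure D5:**
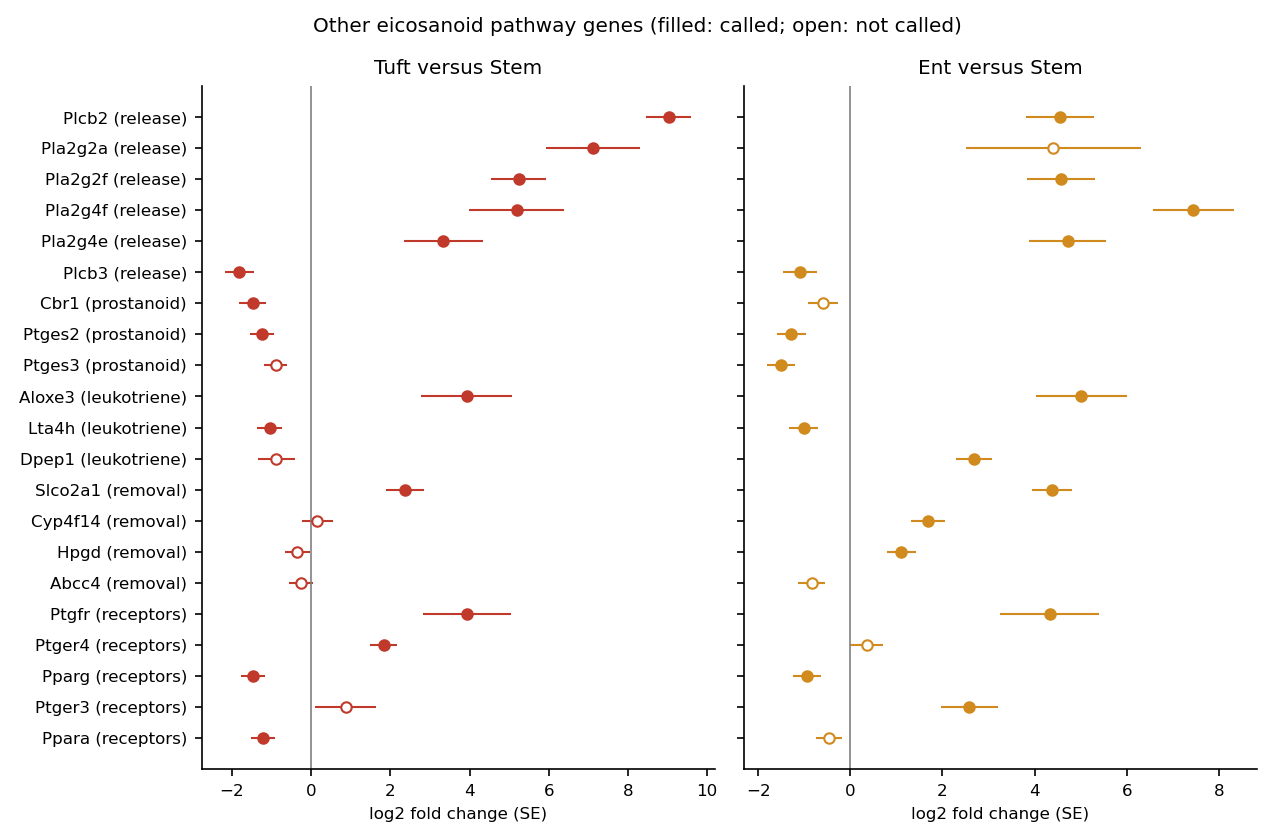
Log2 fold change with its standard error of the other pathway genes named in the text, in tuft cells and in Ent against Stem (both share the stem libraries), with the functional group of each gene in brackets. Filled points were called and open points were not; Ggt5 is left out since Stem had 3 counts. Plcb2 (9.03) is farthest right in tuft cells and Pla2g4f (7.44) in Ent. The prostanoid genes shown (Cbr1, Ptges2 and Ptges3) lie left of 0 in both. Over all 8 listed prostanoid genes, of which 4 had a mean of at least 50, the median was 0.32 in tuft cells and 1.97 in Ent.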

How the data were processed

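Counts per gene of 22 libraries were used. The authors aligned reads to mm10 with STAR 2.5.2a and counted them with HTSeq 0.6.1p1 without strand, and deposited raw counts without normalization. Splicing and polyadenylation tables, which hold the authors' own comparisons, were not used. The 5 entries per file that name no gene (53.9 to 91.6% of a library's entries) stayed out of totals.

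The test was that of edgeR 4.0.16 in R 4.3.3 (filterByExpr, TMM, quasi-likelihood F test of its version 4 method) in 1 fit of all libraries by cell type; DESeq2 1.42.0 was an alternative. On simulated counts for tuft cells against Stem, 61.5% of 200 genes changed 4-fold were called, with 2 false calls among 21995 genes. Background per kilobase was the summed normalized count of receptor families over their transcript length. Lengths and loci come from GENCODE on GRCm38, which is mm10. Depth and cell type move together, and floors cover counting error only.

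All members are named. Of the wider list, up to 3 called genes per functional group with the largest change in tuft cells, up to 2 in Ent and the genes the study shows are named, as are the 3 genes nearest in pattern to each member, except 1 result that is not reported here. Members, lists and alternatives were chosen with earlier results of these data known. Alternatives were another tool, scaling, filter, threshold, thinning, sample set, the replicate number as a block, and leaving out single libraries.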

Additional observations from a re-analysis of the deposited data

Results flagged for a closer look

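Of 24 sets of 4 or 5 libraries examined (8 members in SecPDG, tuft cells and Ent), 1 held a library far from the others, where chance gives about 1 in 20. Ptgs2 had 6.22 normalized counts in SecPDG 2 and 0 in the other 3 SecPDG libraries. The value in SecPDG 2 came from 5 reads, beside a background estimate of 2.74. Any count is flagged where all other libraries are at 0, so that the chance rate does not apply to this set.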

How the results depend on the processing

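The 5 members called higher in tuft cells than in Stem, AbsPro, SecPDG and Ent gave the same call in 371 of 375 alternatives, and the other 4 were Ltc4s in counts thinned to the smallest library, where its mean fell under 50. No called difference of a member reversed in 2072 alternatives over 15 comparisons. Differences that were not called changed sign in 35 of them, for example Ptges in EEC against Stem (-6.05 to 5.62). Among counts of members called, Ent against Stem went from 3 to 5 with DESeq2 and with no minimum mean, and tuft cells against EEC went from 5 to 2 with DESeq2, 3 in a fit of the 2 cell types alone and 2 with the older quasi-likelihood method of edgeR, an alternative chosen after seeing the data. Leaving out single libraries gave 3 to 4 for Ent against Stem (4 without Stem 3), 4 to 5 for EEC against Stem and 4 to 6 for tuft cells against EEC, and the other 6 counts stayed at 0, 0, 5, 5, 5 and 6. Where EEC keeps 1 library, it is assumed to vary like the other groups. The cause of these moves was not tested.

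The wider list moved more. AbsPro against Stem (4 genes) gave 1 thinned and 0 with the older method. SecPDG against Stem (8) gave 13 with DESeq2, at an adjusted p under 0.05 and with the 2 cell types alone, and 15 with library totals. Tuft cells against Stem (19) gave 11 thinned. Ent against Stem (24) gave 41 with no minimum mean, 12 thinned and 13 with the older method. EEC against Stem (18) gave 31 with no minimum mean and 4 with the 2 cell types alone. Tuft cells against SecPDG (4) gave 9 with DESeq2 and at an adjusted p under 0.05, and 2 with the older method. Tuft cells against EEC (9) gave 14 with DESeq2's size factors, 17 at an adjusted p under 0.05 and 4 with the older method. Leaving out single libraries gave 1 to 3 for AbsPro against Stem (1 without Stem 1, Stem 3 or AbsPro 2), 11 to 21 for tuft cells against Stem (11 without Stem 1) and 1 to 9 for tuft cells against SecPDG (1 without SecPDG 3, 9 without Tuft 5).

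Replicate numbers recur across cell types, and same-numbered libraries deviated together (r over 0.1) in 14 of 44 pairs, with r from -0.39 to 0.5. Pairs with different numbers were not computed for reference, so whether a shared number stands for shared mice or sort days is not known. With the replicate number as a block the counts of members were 0, 0, 5, 3 and 5 in AbsPro, SecPDG, tuft cells, Ent and EEC against Stem, and the wider list gave 13 in SecPDG against Stem and 8 in tuft cells against SecPDG. Ptgs2 and Ptges had at most 43 and 203 counts in all libraries of a cell type outside Ent.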
